A study of Mus musculus with 4 samples.

Results

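Very long loops are pairs of anchors at least 1 Mb apart on a chromosome, taken from an H3K27ac HiChIP table of mouse embryonic stem cells, with at least 20 read pairs summed over the 4 libraries. Of 1513030 anchor pairs in the table, 405212 lay at 1 Mb or more and 1797 of those reached 20 counts. They made up 1797 of the 108034 loops of any distance that reached the same count. The members were therefore chosen by their distance and their summed count, and both quantities are given as descriptions only.

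HiChIP joins DNA ends that lie close together in fixed nuclei, pulls down chromatin with an antibody and counts the sequenced pairs. Here the chromatin was fixed with 1% formaldehyde, cut with DpnII and pulled down with an antibody against H3K27ac, the acetylated histone mark of active promoters and enhancers. The 2 groups were stem cells from inbred C57BL/6J mice, called B6 here, and from DBA/2J mice, called D2, without any engineered allele named in the labels. Each strain had 2 libraries, and each library came from a cell line of its own: B6 4-1 and B6 5-1 are B6 replicates 1 and 2, and D2 2-9 and D2 5-5 are D2 replicates 1 and 2. All 4 lines were grown in serum medium with LIF, the MEK inhibitor PD0325901 and the GSK3 inhibitor CHIR99021, so no group went without these agents. A strain is represented by 2 lines only, so the spread between lines cannot be told apart from that between library preparations. The p-values rest on this joint spread together with counting error.

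Most contacts of active mammalian chromatin lie within topological domains, which cohesin extrudes and CTCF bounds. Contacts over greater distances join stretches of the same chromatin type, active with active and silent with silent, or gather loci around nuclear bodies such as the histone locus body, where the clustered replication-dependent histone genes are transcribed and processed. HiChIP counts depend on distance and on how much of the marked chromatin each end carries, so a wide, strongly acetylated end collects pairs with many partners.

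The anchors of the table are whole DpnII fragments or runs of them, and all 56562 anchors began and ended in the cutting site, shown here in capitals at the edges of the anchor over Abt1, which held the loop with the highest count. The stretches are given 5′ to 3′ on the plus strand of GRCm38/mm10, chr13:23421396-23421439 and chr13:23455019-23455062.
Left edge of the Abt1 anchor: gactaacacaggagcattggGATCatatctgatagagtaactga
Right edge of the Abt1 anchor: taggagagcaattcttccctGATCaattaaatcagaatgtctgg

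The strongest region joined a stretch of chromosome 13 that holds replication-dependent histone genes, Zfp184 and Mir1983 with Abt1 and with Btn2a2. All 6 long loops called lower in D2 ended at Btn2a2. The promoters of Abt1, Btn2a2 and the histone gene Hist1h4i are shown as examples from the ends of these loops. Each is the 250 bases before the RefSeq start (GRCm38.p6), all on the minus strand, at chr13:23423867-23424116 for Abt1, chr13:23488858-23489107 for Btn2a2 and chr13:22041363-22041612 for Hist1h4i, which RefSeq calls H4c9. Capitals mark the letters CCAAT, the letters TATAAA and the letters GGGCGG on either strand.
Abt1 promoter: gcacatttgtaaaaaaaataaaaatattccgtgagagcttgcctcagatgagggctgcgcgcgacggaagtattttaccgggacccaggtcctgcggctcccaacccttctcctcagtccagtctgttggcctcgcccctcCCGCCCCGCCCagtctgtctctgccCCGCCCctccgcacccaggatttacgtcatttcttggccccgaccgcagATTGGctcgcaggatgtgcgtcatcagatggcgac
Btn2a2 promoter: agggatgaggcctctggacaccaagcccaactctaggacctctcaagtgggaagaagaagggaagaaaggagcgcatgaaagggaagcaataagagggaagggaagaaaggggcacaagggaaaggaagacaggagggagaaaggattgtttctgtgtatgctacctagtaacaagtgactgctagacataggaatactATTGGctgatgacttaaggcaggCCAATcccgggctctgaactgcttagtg
Hist1h4i promoter: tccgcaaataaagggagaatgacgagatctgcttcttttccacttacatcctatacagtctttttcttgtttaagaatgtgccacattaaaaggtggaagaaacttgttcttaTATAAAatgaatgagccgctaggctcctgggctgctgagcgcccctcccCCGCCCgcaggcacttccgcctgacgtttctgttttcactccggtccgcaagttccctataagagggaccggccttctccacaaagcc
CCAAT stood once in the Abt1 promoter, 2 times in that of Btn2a2 and 0 times in that of Hist1h4i, against 33.8% of 32851 RefSeq promoters of that length with at least 1 match. TATAAA stood only in the Hist1h4i promoter, and 12.4% of all promoters held it. GGGCGG stood 3 times in the Abt1 promoter, with overlap, 0 times in that of Btn2a2 and 1 time in that of Hist1h4i, against 32.7% of all. These matches describe letters and show no bound factor.

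Matches to the core letters of the CTCF motif, some of whose positions were left free, on either strand, are shown for part of the same region. They were listed for the anchors of its called long loops and for the Abt1 anchor, where these held any. The other anchors of the region are not listed. The letters are those in capitals below. The strand given is the one on which they read. The Hist1h2ah stretch lay at chr13:22030623-22030652 on the minus strand, and that of the intergenic anchor near Gm11334 at chr13:23402008-23402037 on the minus strand. Those of the Abt1 anchor lay at chr13:23424618-23424647 and chr13:23434575-23434604, both on the plus strand.
Hist1h2ah anchor: ccaatctttCCGCTAGGGGGCgaaagttaa
Near Gm11334 anchor: cctagatctCCACCAGGAGGCcccagggat
Abt1 anchor, first: tcggaccagCCGCCAGGGGGCgcggtccgc
Abt1 anchor, second: aattacatcCCGCAAGGAGGCtctcttgaa
The Btn2a2 anchor held 0 such strings. Over all long loops, 444 of the 1731 anchors held at least 1, and their rate was 12.4 per Mb against 12 per Mb over all 56562 anchors, these included. Both anchors held 1 or more in 170 long loops (9.46%). A plus-strand string on the left with a minus-strand string on the right, the convergent order of CTCF loops, was found in 51 of these, and the opposite order in 52. Among loops of 500 kb to 1 Mb the same counts were 145 and 105.

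The B6 libraries totalled 2908329 and 2800847 pairs, the D2 libraries 2767882 and 2944258. D2 replicate 1 stood apart: it had the fewest anchor pairs with a count, 715798 against 803268 to 833100 in the others, and its library name carries the mark 10cyc where the others carry 8cyc, whose meaning the labels do not state. Of the naive stem cell markers, 8 of 12 had an anchor over a start site, with a median total of 2441 counts over the 4 libraries, and 6 of these took part in a long loop. The anchors over markers of primitive endoderm (5 of 5 genes, median 228 counts), trophoblast (3 of 4, median 772), neural cells (5 of 5, median 363) and feeder fibroblasts (1 of 7, Thy1 with 70 counts) took part in 0 long loops.

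The 1797 long loops held 14421 and 12994 counts in B6 and 15705 and 13646 in D2. Scaled by the library totals, this was 0.496% and 0.464% in B6 and 0.567% and 0.464% in D2. D2 replicate 1 was highest, the other D2 library lay at the level of the lower B6 library, and the strains overlapped. The means were 0.480% ± 0.0226 (SD, n = 2) in B6 and 0.515% ± 0.0735 (SD, n = 2) in D2, a difference of 0.0355 percentage points (two-sided exact permutation test, p = 1, where 2 against 2 libraries cannot go below 0.333). Without D2 replicate 1 the difference was -0.0164.

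The counts of all pairs at 1 Mb or more, members or not, ran the other way. They took 7.86% and 7.40% of the library in B6 and 6.83% and 7.05% in D2, so both D2 libraries lay below both B6 libraries. The means were 7.63% ± 0.322 and 6.94% ± 0.158 (SD, n = 2 each), a difference of -0.685 percentage points (exact permutation test, p = 0.333, the smallest possible). Of these very distant counts, the long loops took 6.31% and 6.27% in B6 and 8.31% and 6.57% in D2, with D2 replicate 1 far above the rest. D2 replicate 1 was also the library with the highest CPM (counts per 1000000 counts of the library) in 740 long loops (41.2%), against 437 for B6 replicate 1, 320 for B6 replicate 2 and 300 for D2 replicate 2. Where this library decides a result, the value without it is given.

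**Figure D1:**
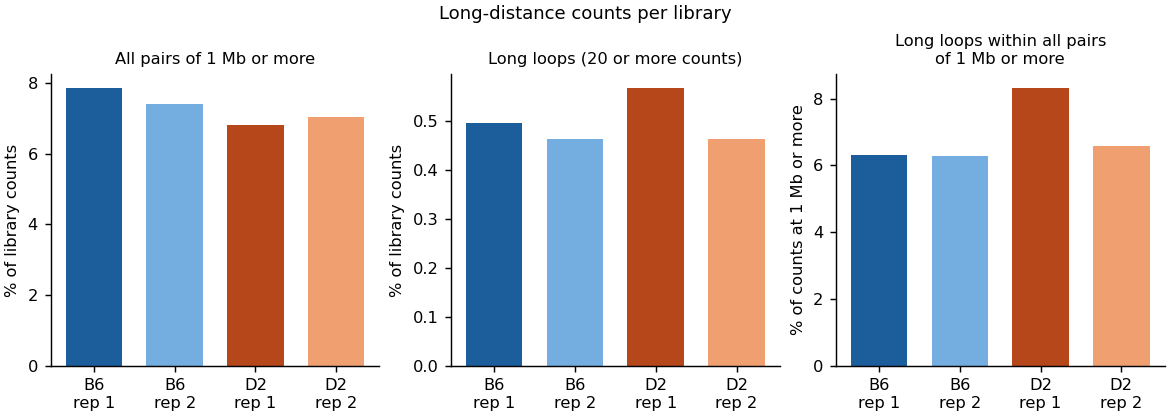
Bars give, for each of the 4 libraries, the share of library counts in all pairs of 1 Mb or more (left) and in the long loops (middle), and the long loops' share of the counts at 1 Mb or more (right), all in percent from 0. Both D2 bars are below both B6 bars on the left, while D2 replicate 1 is the highest bar in the other panels, at 0.567% and 8.31%.

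Long loops had low counts, and their ends were wide and mostly held gene starts. Their summed counts ran from 20 to 249 with a median of 27, which is a mean of 1.72 to 21.9 CPM. At least 30 counts were reached by 699 loops (38.9%), 50 by 150, 100 by 19 (1.06%) and 200 by 2. Distances ran to 1998 kb, just under the 2 Mb limit of the table, with a median of 1285 kb. From 1000 to 1100 kb, 368 loops made up 0.668% of the pairs with a count, and from 1900 to 2000 kb, 74 loops made up 0.240%.

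Both thresholds ran through a continuum. The shortest members were Rcc1l/Gtf2ird2 to Bcl7b/Baz1b at 1000101 bp, with 8 and 2 counts in B6 and 14 and 10 in D2, and a loop from near Gm12486 to Casq2/Vangl1 at 1000449 bp (7, 14, 17 and 10). Just outside lay BC067074 to Gm47558 at 999635 bp (6, 3, 8 and 6) and a loop to Srebf1 at 999450 bp (7, 11, 4 and 2). At the count threshold, 191 pairs had exactly 20 counts, such as Smim27/Topors to Ubap2 (5, 4, 5 and 6), and 234 pairs had 19, such as Commd7 to Zfp341 (3, 3, 6 and 7).

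An annotated start site (GENCODE M21) lay in both anchors of 1426 long loops (79.4%), in a single anchor of 337 (18.8%) and in neither of 34 (1.89%). The share with start sites at both ends was 67.8% in the 5296 loops of 500 kb to 1 Mb, 36.2% in loops under 500 kb and 23.3% in all pairs at 1 Mb or more with any count. Loops share anchors, so no test was made on these shares. The count rule favours broad ends: the 1731 anchors of long loops had a median width of 24764 bp against 4080 bp over all 56562 anchors, these included, and a median total of 2232 counts against 194. At like width the anchors of long loops were compared with those in no long loop. Of anchors 20 to 30 kb wide, 85.7% of those in long loops and 74.7% of the others held a start site, and at 40 to 60 kb the shares were 94.9% and 90.4%. The median GC content was 46.2%, against 45.2% over all anchors.

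Each of the 19 autosomes carried long loops, from chromosome 2 with 163 and chromosome 10 with 159 downwards. The deposited pairs do not cover the sex chromosomes. As a share of the loops tested on a chromosome they were most frequent on 19 (3.17%), 15 (2.63%) and 10 (2.56%) and least on 12 (0.649%) and 9 (0.897%). All 1797 loops had a deposited q-value under 0.01 in at least 2 libraries, and 1711 (95.2%) had it in all 4. Since a pair with a single count already had a q of 0.0225 to 0.0275, this q adds little to the count rule.

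The 11 loops with the highest mean CPM fell into a few regions: 7 in the histone region of chromosome 13, 2 around Tbx3, and 1 each at Vps54 and at Kifc1 with the heat shock genes. The strongest joined Zfp184 (chr13:21923147-21947899), a zinc finger gene, with Abt1 (chr13:23421416-23455039), which encodes a nuclear protein of basal transcription, over 1503 kb. It had 61 and 48 counts in B6 and 88 and 52 in D2, or 21, 17.1, 31.8 and 17.7 CPM. D2 replicate 1 was highest and the strains overlapped; D2 differed from B6 by a log2 fold change of 0.30 with an SE of 0.25 (adjusted p = 0.722 in edgeR's quasi-likelihood test) and it turned to -0.17 without D2 replicate 1.

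The second joined Mir1983/Gm11279 with Abt1 (15.5 and 16.8 CPM in B6, 25.7 and 18.7 in D2). Both D2 libraries were higher, with a log2 fold change of 0.39 (edgeR adjusted p = 0.607), and of 0.15 without D2 replicate 1. The next histone loop, Hist1h2ah/Hist1h2bk/Hist1h4i to Abt1, had 14.1, 12.9, 22.8 and 8.83 CPM. Its highest and its lowest value were both in D2, and the log2 fold change of 0.15 became -0.67 without D2 replicate 1.

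Outside chromosome 13, the loop with the highest level started at an intergenic stretch of chromosome 5 (chr5:118420932-118468040), 2114 bp from the start of Gm26455. This anchor formed 8 long loops, of which the strongest ran to the ends over Tbx3os1/Gm43399 and over Tbx3, a T-box factor of the naive stem cell state. The loop to Tbx3 (chr5:119654183-119693085) spanned 1229 kb and had 10.7 and 8.57 CPM in B6 and 23.1 and 13.6 in D2. Both D2 libraries were above both B6 libraries, and D2 was higher by 0.85 on the log2 scale with an SE of 0.29 (adjusted p = 0.113 in edgeR, and 0.00826 to 0.789 over the alternatives). Without D2 replicate 1 the value was 0.43. The loop to Tbx3os1/Gm43399 had 12.4, 13.6, 24.6 and 17.0 CPM, again with both D2 libraries above B6 (log2 0.60, edgeR adjusted p = 0.320, and log2 0.33 without D2 replicate 1).

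Of the 8 loops of that anchor 4 had both D2 libraries above both B6 libraries, and all 4 ran toward Tbx3. Toward the other side, the loop to Wsb2/Rfc5/Ksr2 had 20 and 19 counts in B6 and 20 and 17 in D2, and that to Wsb2 had 12, 9, 8 and 5. Beside the loops above, the loop to Gm16063/Tbx3os1 had 13, 8, 15 and 16 counts, and the loop past Tbx3, to a stretch near Tbx3os2, had 24, 18, 23 and 29. The 8 loops summed to 54.0 and 45.3 CPM in B6 and 76.6 and 57.1 in D2, and 4 of them had a log2 fold change above 0 and 4 below. EdgeR called 0 of the 8, with 2 at an unadjusted p under 0.05.

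The other loops among these 11 lay on chromosomes 11 and 17. Rab1a/Cep68, the first a GTPase of early secretory traffic, was joined over 1031 kb with Vps54, a subunit of a vesicle tethering complex (9.63, 10.0, 17.7 and 10.9 CPM). Kifc1/Platr17/Daxx, with a kinesin motor and the histone H3.3 chaperone Daxx, was joined with the HSP70 genes Hspa1b and Hspa1a (6.88, 10.7, 14.5 and 10.2 CPM). In the second of these the strains overlapped, and in the first both D2 libraries lay above B6 by less than the test could call (edgeR adjusted p = 0.578), with a log2 fold change of 0.46, or 0.08 without D2 replicate 1. Of the 19 loops with 100 or more counts, 12 had a log2 fold change above 0 and 7 below.

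**Figure D2:**
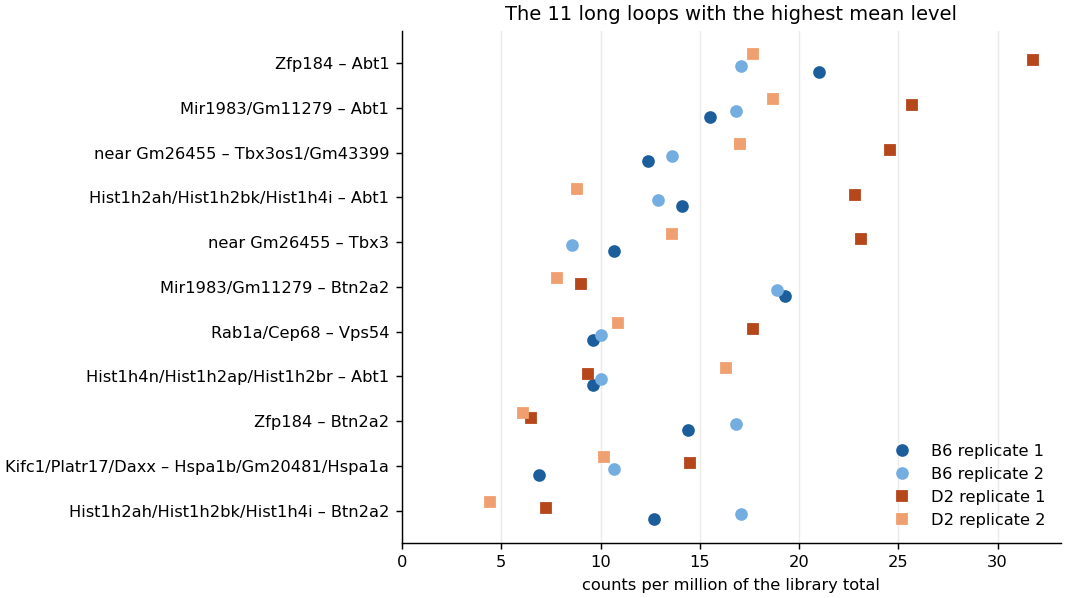
The 11 long loops with the highest mean, each on a row of its own, with the CPM of each library on the x axis, circles for B6 and squares for D2. In the 3 loops to Btn2a2 both circles lie to the right of both squares, and in 7 of the other 8 D2 replicate 1 lies farthest to the right.

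The longest members ended just under 2 Mb. Slc35b2/Hsp90ab1, which holds an HSP90 gene, met a stretch in Ccnd3, the gene of cyclin D3, over 1998340 bp with 6 and 7 counts in B6 and 7 and 0 in D2. Kifc1/Platr17/Daxx met Atat1/Mrps18b/Ppp1r10 over 1998 kb (6, 8, 15 and 11 counts). Sertad1/Prx met Sipa1l3 over 1995 kb (3, 3, 5 and 9 counts). None of the 3 was called (edgeR adjusted p = 0.653, 0.560 and 0.564).

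To set the counts against what distance and the ends alone give, an expected count was computed from the mean rate of pairs in 50 kb steps of distance, multiplied by the totals of both anchors, over all 1496448 anchor pairs at 1 to 2 Mb. The count was at or above expectation in 1239 long loops (68.9%), at least 2 times in 733 (40.8%), 5 times in 256 (14.2%) and 10 times in 95 (5.29%), with a median of 1.58 and a range of 0.266 to 298. The 558 loops below expectation had ends with a median total of 4405 counts and start sites at both ends in 89.2%. The 256 loops at 5 times or more had ends with a median total of 1176 and start sites at both ends in 66%. The rule's count enters this ratio, so it is a description.

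The highest ratio, 298, belonged to the loop between the predicted genes Gm14393 (chr2:175061574-175088977) and Gm14401 (chr2:177054202-177086826), 1995 kb apart. It had 8 and 11 counts in B6 and 23 and 18 in D2, with both D2 libraries above B6 (log2 1.03, edgeR adjusted p = 0.252). These ends are near copies of each other: 12317 of the 75-base stretches of the first, 45.1%, also occur in the second. The longest identical stretch was 760 bp, at chr2:175084127-175084886 and, on the opposite strand, at chr2:177058465-177059224. Its first 75 bases, on the plus strand of GRCm38 at chr2:175084127-175084201, are shown because a 75-base read from them has the same letters at both ends of the loop; all are in capitals since all are identical.
Start of the identical stretch: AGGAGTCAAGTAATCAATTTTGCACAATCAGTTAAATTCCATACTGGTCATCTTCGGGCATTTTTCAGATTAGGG
These letters occur 10 times on the autosomes of the assembly. How the read aligner placed such reads is not given in the sources used here, and the part of shared sequence in this count was not tested.

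Shared sequence was rare among long loops. At least 1 identical 75-base stretch was present in both anchors of 258 (14.4%), at least 100 in 12 (0.668%) and at least 1000 in 3, and in loops of 500 kb to 1 Mb the shares at the first and second of these limits were 8.06% and 0.264%. The next highest ratios include loops with none. A stretch near Gm29065 met Epha4, an ephrin receptor gene, with 11 and 11 counts in B6 and 7 and 5 in D2, 106 times expectation, with 0 shared stretches. Cisd1/Ipmk met Zwint, a kinetochore gene, with 11, 13, 5 and 6 counts, 55.7 times expectation. In both, each B6 library lay above each D2 library, yet edgeR gave adjusted p = 0.515 and 0.347.

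Cth/Ankrd13c and Wls, a gene needed for Wnt secretion, were joined over 1912 kb by 4 and 4 counts in B6 and 7 and 6 in D2, 49.7 times expectation. Gja1, the connexin 43 gene, met the heat shock factor gene Hsf2 with 6, 9, 13 and 8 counts, 44.7 times expectation. Zfp986 met Gm13147 on chromosome 4 with 9, 10, 4 and 5 counts, 52.7 times expectation, and here 3286 stretches (9.95%) were shared. None of these was called (edgeR adjusted p = 0.452 to 0.845).

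**Figure D3:**
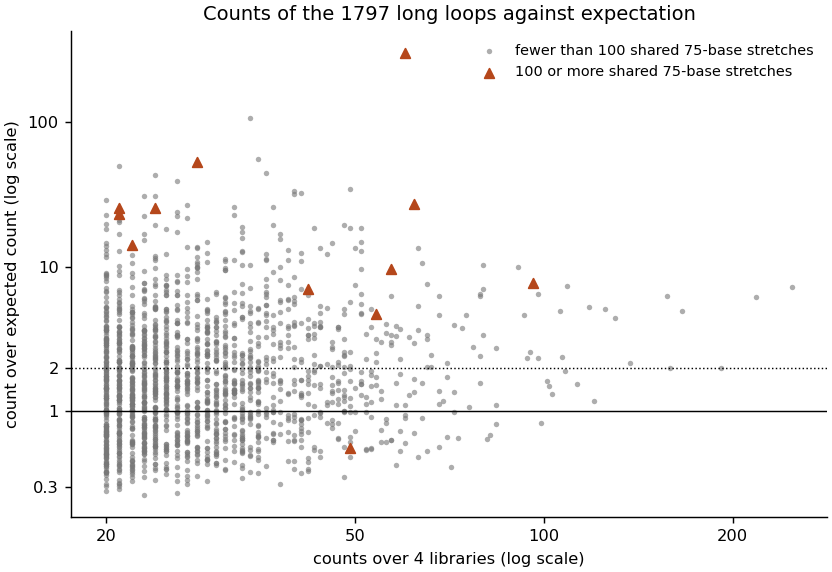
Each point is a long loop, with its summed count over the 4 libraries on the x axis and that count over its expected count on the y axis, both on log scales; triangles have 100 or more shared 75-base stretches, and the solid and dotted lines mark 1 and 2 times expectation. The median is 1.58, the highest triangle is Gm14393 to Gm14401 at 298, and most loops with a high ratio have fewer than 100 shared stretches.

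The strains were compared loop by loop with edgeR over all 108034 tested loops, a loop being called at an adjusted p under 0.05. Of the 1797 long loops 13 were called (0.723%), 7 higher in D2 (0.390%) and 6 lower (0.334%). Of all tested loops 1.43% were called, 0.472% higher and 0.956% lower. The share of long loops was thus no higher than this background, and no test of that difference was made. At an unadjusted p under 0.05 there were 160 (8.90%, against 11.7% of all). The strains did not overlap in CPM in 658 (36.6%, against 41.7% of all), with D2 the higher strain in 375 and the lower in 283. The median log2 fold change was 0.04, against 0.01 over all tested loops, and 931 loops lay above 0.

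These calls depend on the depth and on the scaling. With the totals of pairs at 1 Mb or more as library sizes, 20 loops were called, 16 of them higher in D2 and 4 lower. When D2 replicate 1 was left out, 9 of the 13 were called again, and 8 when D2 replicate 2 was. Leaving out B6 replicate 1 or 2 kept 3 and 2 of the calls. DESeq2 called 0 of the 1797, with 24 at an unadjusted p under 0.05 and no adjusted p for 1771. All 13 kept their direction in each of these fits. A loop with few counts in a strain reached the 20 counts through the other, so calls near that limit had to show a large difference. The 13 calls include such loops, both higher and lower, and these are marked where they are described.

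**Figure D4:**
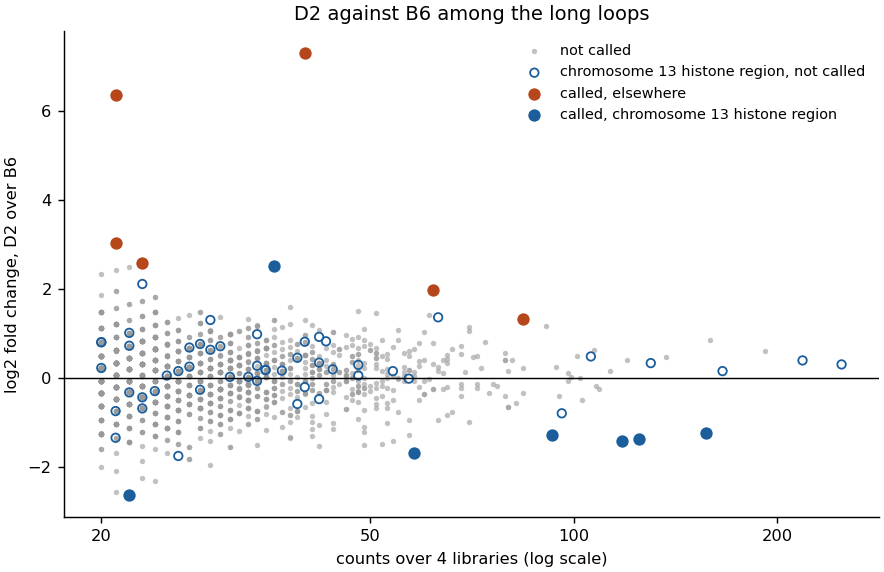
Each point is a long loop, with its summed count over the 4 libraries on a log x axis and the log2 fold change of D2 over B6 on the y axis; filled points are the 13 called loops, in blue for the histone region of chromosome 13, where open circles mark loops that were not called. All 6 called loops below 0 are blue, and the 2 highest points are the loops of Gm20760, which have 0 counts in both B6 libraries.

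Of the 13 called loops 7 lay in the histone region and 2 in another part of chromosome 13. The region ran from chr13:21708184 to 24847758 and held 56 long loops among 26 anchors, with 2998 counts (5.28% of all long-loop counts). It joined a first block of histone genes at Hist1h4n/Hist1h2ap/Hist1h2br, Hist1h1b and Hist1h2ah, with Zfp184 and Mir1983 between them, to Abt1, Btn2a2 and a second block at Hist1h1c/Hist1h3c/Hist1h2bb. The 56 loops summed to 255.8 and 264.9 CPM in B6 and 311.1 and 221.1 in D2. The D2 libraries were the highest and the lowest, so the strains overlapped, and the median count over expectation was 4.30.

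Within it, the neighbouring anchors of Btn2a2 and Abt1 differed. Btn2a2 (chr13:23483245-23523596), a butyrophilin gene of the immunoglobulin superfamily, had 10 long loops with sums of 82.9 and 86.1 CPM in B6 and 40.5 and 29.9 in D2. Both D2 libraries lay far below both B6 libraries. All 10 loops had a log2 fold change below 0, 8 separated the strains and 6 were called lower, which are all 6 lower calls among long loops.

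The strongest was Mir1983/Gm11279 to Btn2a2, over 1595 kb. It had 56 and 53 counts in B6 and 25 and 23 in D2, and fell by 1.25 ± 0.29 on the log2 scale (SE; edgeR adjusted p = 0.00370). Zfp184 to Btn2a2 had 42 and 47 counts in B6 and 18 and 18 in D2, and fell by 1.37 ± 0.31 (edgeR adjusted p = 0.00305). In each of these the strains were separate and the D2 level was under that of either B6 library. Hist1h2ah/Hist1h2bk/Hist1h4i to Btn2a2 had 37 and 48 against 20 and 13 counts, and fell by 1.43 ± 0.32 (edgeR adjusted p = 0.00240).

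The weaker calls at the same anchor were to Hist1h4n/Hist1h2ap/Hist1h2br with 31, 34, 18 and 10 counts (log2 -1.28, edgeR adjusted p = 0.0253), to a stretch near Pom121l2 with 30, 14, 10 and 4 (-1.70, 0.0147) and to Hist1h1b/Hist1h3i/Hist1h2an with 10, 9, 1 and 2 (-2.63, 0.0369). In all 3 both D2 libraries were the lower ones, and near Pom121l2 the B6 libraries themselves differed widely. The loop to Hist1h1b/Hist1h3i/Hist1h2an reached the count minimum mostly through B6 and had to differ. Its fold and p-value are given as a description. Of the 6 calls, 5 were kept without D2 replicate 1, 2 without D2 replicate 2, 1 without B6 replicate 1, 1 without B6 replicate 2 and 4 with the totals of pairs at 1 Mb or more. The decrease was not limited to long loops. All other counts of the Btn2a2 anchor fell by 1.13 on the log2 scale (edgeR adjusted p = 6.55e-06 over anchors), and of its 15 other tested loops 14 had a log2 fold change below 0.

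Abt1 had 13 long loops, which held 27% of the anchor's counts. They summed to 88.0 and 90.3 CPM in B6 and 139.8 and 89.3 in D2. D2 replicate 1 alone was high, and D2 replicate 2 lay between the B6 libraries. Of the 13, 11 had a log2 fold change above 0, and edgeR called 0, with 0 at an unadjusted p under 0.05. Against the B6 mean, the sum without D2 replicate 1 gave a log2 difference of 0.00 for Abt1 and -1.50 for Btn2a2. All other counts of the Abt1 anchor differed by -0.01 (edgeR adjusted p = 0.980).

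Abt1 and Btn2a2 shared 10 partners, and these give a comparison within each library that needs no scaling. To Abt1 the B6 libraries had 234 and 235 counts and the D2 libraries 357 and 244, and to Btn2a2 they had 241 and 241 against 112 and 88. The ratio of Btn2a2 to Abt1 was 1.03 and 1.03 in B6 and 0.314 and 0.361 in D2. The ratio was near 1 in both B6 lines and near the same lower level in both D2 lines. With 2 against 2 libraries an exact permutation test could not go below 0.333, and the partners were chosen with these counts known.

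A further anchor, just before Abt1, was higher in D2. The stretch near Gm11334 (chr13:23398382-23403761), 15877 bp from a start site, met Hist1h2ah/Hist1h2bk/Hist1h4i with 1 and 4 counts in B6 and 20 and 11 in D2. Both D2 libraries were above B6, by 2.51 on the log2 scale with an SE of 0.61 (adjusted p = 0.00674 in edgeR). This loop reached the count minimum mostly through D2 and had to differ, so its fold and p-value are given as a description. The call was lost without D2 replicate 1 (log2 1.98, edgeR adjusted p = 0.366) and without either B6 library (0.452 and 0.0523). The other counts of the stretch near Gm11334 were higher in D2 too, by 1.39 (edgeR adjusted p = 6.02e-08 over anchors), in 9 of its 9 other tested loops. The neighbouring stretch near Abt1 met Hist1h2ah/Hist1h2bk/Hist1h4i with 11, 6, 25 and 21 counts, and this loop was not called (log2 1.36, edgeR adjusted p = 0.0679).

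Loops from histone block to histone block stood over expectation without a called difference. So did others of the region, such as Zfp184 to Abt1 at 7.25 times expectation. Hist1h2ah/Hist1h2bk/Hist1h4i to Hist1h1c/Hist1h3c/Hist1h2bb had 31 and 29 counts in B6 and 21 and 15 in D2, 7.75 times expectation. Both D2 libraries lay below B6, and the log2 fold change of -0.80 had an edgeR adjusted p of 0.276. Hist1h1b/Hist1h3i/Hist1h2an to the same end had 17, 11, 21 and 8 counts, 9.57 times expectation. Hist1h4n/Hist1h2ap/Hist1h2br to that end had 13, 12, 21 and 8 counts, 4.69 times expectation, near the region's median of 4.30. Histone genes are near copies of each other: 465, 534 and 351 identical 75-base stretches were shared by the ends of these block-to-block loops. Their part in the counts was not tested. In the loops to Btn2a2 shown above the number of shared stretches was 0 to 26.

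**Figure D5:**
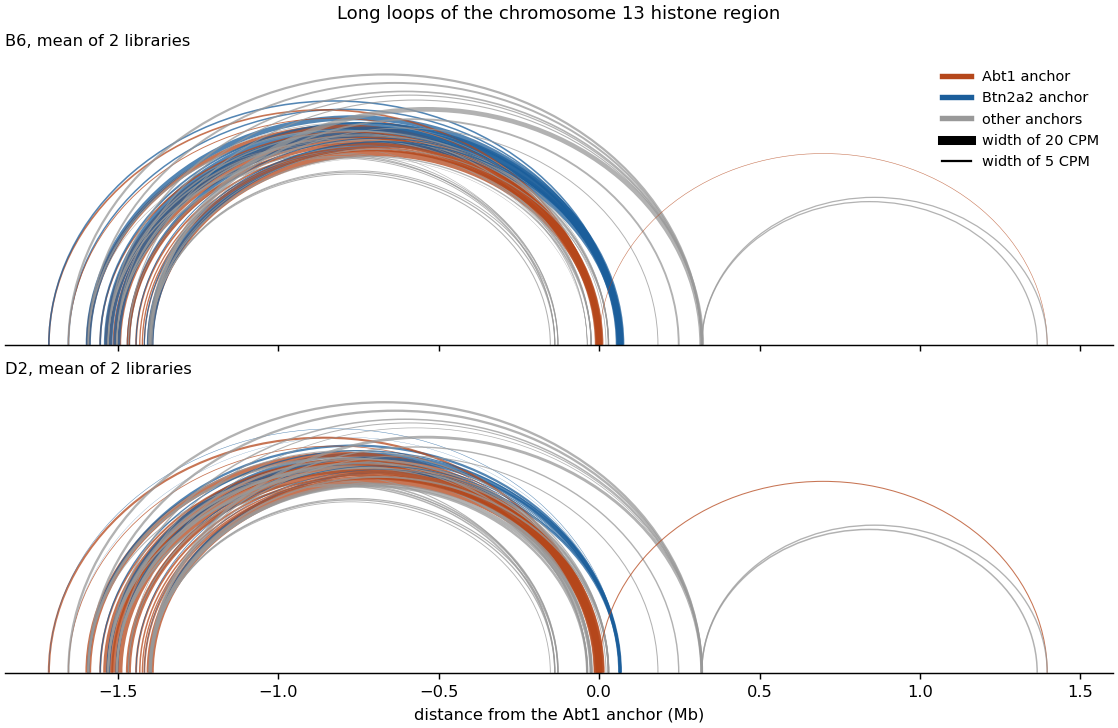
The 56 long loops of the histone region as arcs between their anchors, with distance from the Abt1 anchor in Mb on the x axis, the B6 mean above and the D2 mean below; the line width is proportional to CPM, orange arcs end at Abt1, blue ones at Btn2a2 and grey ones at other anchors. The blue arcs are wide in B6 (84.5 CPM in sum) and thin in D2 (35.2 CPM).

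The lowest adjusted p among long loops was found on chromosome 4, in a block of zinc finger genes. The stretch near Gm13229 (chr4:145483898-145496599) met Gm20760 (chr4:146928522-146939664) with 0 and 0 counts in B6 and 18 and 22 in D2 (edgeR adjusted p = 2.51e-08). Taking 3 counts over both B6 libraries as a floor, it was at least 13.3-fold higher in D2. Zfp990 met the same end with 0, 0, 9 and 12 counts, at least 7.0-fold higher in D2 (edgeR adjusted p = 0.000231, and 0.0866 and 0.0687 without B6 replicate 1 or 2). B6 had no count in either loop, so both reached the limit of 20 counts through D2 alone and had to differ; their folds and p-values are given as a description. The ends shared 0 identical stretches. The other counts of Gm20760 were also higher in D2, by 0.70 on the log2 scale (edgeR adjusted p = 0.00497 over anchors).

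The block held 13 long loops with a median of 19.3 times expectation, and no direction in common. They summed to 28.5 and 32.5 CPM in B6 and to 28.5 and 33.3 CPM in D2, so the strains overlapped fully. 8 of the 13 loops lay below 0, among them Zfp980 to a stretch in C230088H06Rik with 17 and 17 counts in B6 and 11 and 4 in D2. Both D2 libraries were lower there, yet the loop was not called (log2 -1.23, edgeR adjusted p = 0.182). The only build that the submitters' processing notes name is mm10, a C57BL/6J assembly, and the part of strain sequence in these counts was not tested.

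Of the 4 other loops called higher in D2, 2 shared an anchor over Gm48170/Gm48164/Gm48185 on chromosome 13 (chr13:65597371-65668761). Its loop to Vmn2r-ps106/Zfp640 had 8 and 4 counts in B6 and 22 and 28 in D2, higher by 1.97 on the log2 scale with an SE of 0.44 (adjusted p = 0.00243 in edgeR), at 27.2 times expectation. Its loop to Gm40989 had 1, 1, 7 and 12 counts (3.03, edgeR adjusted p = 0.0239). Both D2 lines were high in each of these 2 loops. The loop to Gm40989 reached the count minimum almost wholly through D2 and had to differ. Its fold and p-value are given as a description. The call of the first was lost without B6 replicate 2 (edgeR adjusted p = 0.260), and that of the second without B6 replicate 1 or 2 or D2 replicate 2 (0.387, 0.322 and 0.166). The ends shared 988 (1.39%) and 7463 (10.5%) identical stretches. Of the anchor's 7 other tested loops 3 were called higher.

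The other 2 had 0 shared stretches. Itgav, the integrin alpha V gene, met Ube2l6, which encodes a conjugating enzyme of the interferon-induced ISG15 pathway, on chromosome 2 with 9 and 14 counts in B6 and 37 and 24 in D2 (log2 1.33, edgeR adjusted p = 0.0284). Cebpzos met a stretch near Map4k3 on chromosome 17 with 1, 2, 15 and 5 counts (2.58, edgeR adjusted p = 0.0438). The loop of Cebpzos reached the count minimum mostly through D2 and had to differ, so its fold and p-value are given as a description. In both loops D2 replicate 1 was highest and D2 replicate 2 still above B6. Without D2 replicate 1 neither was called, at a log2 fold change of 0.95 and 1.55 (edgeR adjusted p = 0.552 and 0.709), and without either B6 library the calls were lost too. Of the other tested loops, 22 of 24 at Ube2l6 and 30 of 33 near Map4k3 had a log2 fold change above 0. Of all tested loops 50.9% did. Loops of an anchor share its counts, so they are not independent. The anchor total at Ube2l6 was 267.2 and 253.1 CPM in B6 and 494.6 and 328.8 in D2. Near Map4k3 it was 267.2, 301.3, 600.5 and 436.1, so D2 replicate 1 was highest at both anchors.

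Over all anchors, 218 of the 1731 in long loops were called in the anchor's total over all its pairs (12.6%, 7.16% higher and 5.43% lower in D2), and 232 with the long loops left out of the total. Of all tested anchors 9.77% were called, 2.68% higher and 7.10% lower. This count moved with the method, as the closing section gives. The balance of directions moved too: DESeq2 called 47 higher and 55 lower. Without D2 replicate 1, lower calls outnumbered higher ones. In the anchors of long loops the median log2 fold change of the total was 0.15, against 0.01 over all tested anchors.

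Long loops shared ends. Of the 1731 anchors, 941 stood in a single long loop, 790 (45.6%) in 2 or more, 412 (23.8%) in 3 or more and 18 in 10 or more. An anchor with 3 or more was an end of 1454 loops (80.9%), and only 86 (4.79%) had both ends to themselves. Joined by shared ends, the loops formed 263 groups, of which 49 held at least 10 anchors. The largest by anchors ran over 16.3 Mb of chromosome 11 with 42 anchors and 54 loops, with the keratin genes Krt17/Krt42 as its busiest end. Others were on chromosome 15 (38 anchors, 49 loops), 2 (37 and 53), 19 (37 and 72) and 4 (33 and 40). Of the 268 loops in these 5 groups edgeR called 0, with 1 to 5 per group at an unadjusted p under 0.05.

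The anchor with the most long loops lay on chromosome 17 (chr17:33879999-33957922), a gene-dense stretch of 77924 bp beside the major histocompatibility complex with Kifc1, Daxx, Tapbp and Rps18. It had 25 long loops, 9 to upstream and 16 to downstream partners, with 997 counts or 14.3% of the anchor's total. They summed to 80.8 and 87.1 CPM in B6 and 107.7 and 74.7 in D2, so the D2 libraries were the highest and the lowest. Beside the heat shock genes it met Csnk2b with 18, 20, 25 and 9 counts, Zfp870 with 16, 21, 21 and 14, and Pou5f1, the gene of OCT4, with 15, 11, 19 and 11. The median count over expectation was 0.972, so these counts were near what distance and the ends' totals give. EdgeR called 0 of the 25, with 0 at an unadjusted p under 0.05.

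The next were Fnbp1 on chromosome 2, a membrane-shaping protein of the cytoskeleton, with 16 long loops, and Arhgef25/Dtx3/Pip4k2c on chromosome 10 with 15, all to downstream partners. Slc3a2 on chromosome 19, the heavy chain of an amino acid transporter, had 14. The median count over expectation was 0.52 at Fnbp1, 0.724 at Arhgef25/Dtx3/Pip4k2c and 1.16 at Slc3a2. At Fnbp1 and Arhgef25/Dtx3/Pip4k2c most counts were thus below what distance and the ends' totals give. For Fnbp1 the loop to Wdr34/Set/Pkn3 had 22 and 7 counts in B6 and 29 and 13 in D2, an example in which libraries of the same strain differed more than the strains. Arhgef25/Dtx3/Pip4k2c met Cnpy2/Cs, which holds the citrate synthase gene, with 26, 22, 21 and 30 counts. Slc3a2 met Naa40/Rcor2/Mark2 with 16, 22, 31 and 15. EdgeR called 0 of the loops at these anchors, with 1 at an unadjusted p under 0.05, at Slc3a2.

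Of the lists of genes drawn up from textbook roles, the pluripotency genes often took part in long loops. Of 35 with an anchor over a start site 17 did (48.6%), against 1998 of 13980 protein-coding genes (14.3%). Their anchors were also rich in counts, with a median total of 1838 against 557, and the count rule favours such ends. They had 69 long loops. EdgeR called 0 of these, with 5 at an unadjusted p under 0.05, and the median log2 fold change was 0.19 against 0.01 over all tested loops. This median was not computed without D2 replicate 1. At the list's anchors with the most long loops, the log2 difference in summed CPM fell without that library. It went from 0.31 to 0.06 at Sall4 and from 0.52 to 0.19 at Utf1.

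Sall4, a zinc finger factor of the stem cell network, had the most, 11, the strongest to Zfp217 with 22 and 31 counts in B6 and 25 and 17 in D2. Utf1, a chromatin factor of undifferentiated cells, had 10, the strongest to Ifitm5/Gm45717/Ifitm2 with 21, 20, 47 and 19 counts. The Sall4 loop showed overlapping strains, and in that of Utf1 only D2 replicate 1 was high. The core factors had few: Nanog 3, the strongest to near C1rl with 6, 8, 16 and 4 counts, Sox2 3, to near Gm25696 with 5, 11, 9 and 10, and Pou5f1 4.

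Among signalling genes of this list, Nodal, a TGF-beta family ligand, had 7, with 9, 8, 8 and 10 counts to near Chst3. Lefty2, its inhibitor, had 7, with 20, 9, 7 and 15 to Enah. Lifr, the LIF receptor, had 4, the strongest to Gm8047 with 8, 11, 14 and 9, and Fgf4 had 2, the strongest to Cars with 12, 5, 13 and 6. In none of these 4 were the strains apart. Zfp42, a marker of naive cells also called Rex1, met Asah1 over 1921 kb with 10, 11, 18 and 12 counts at 12.9 times expectation, the highest ratio of the list's strongest loops. Its D2 libraries lay above B6 by little (log2 0.44, edgeR adjusted p = 0.783). Tdgf1, Dnmt3l, Trim28, Lin28a, Otx2 and Socs3 had 1 to 3 each.

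Developmental regulators, which are mostly silent in these cells, rarely took part: 5 of 78 (6.41%), with a median anchor total of 217. They were Foxd3, whose loop to 0610043K17Rik had 7, 7, 14 and 10 counts, Hoxc12 and Hoxc13, which share an anchor and met Acvr1b with 6, 3, 7 and 10, and Zic2 and Zic5, which share an anchor and met Stk24 with 6, 2, 5 and 7. Of genes of chromatin architecture and heterochromatin 7 of 28 (25%) took part, among them Stag1, Yy1, Trim28, Daxx, Ehmt2 and Ring1. Stag1, a cohesin subunit, met Mras with 7 and 5 counts in B6 and 11 and 11 in D2. EdgeR called 0 of the loops of both lists, with 0 at an unadjusted p under 0.05.

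Histone genes had the highest share, 37 of 53 (69.8%), through only 8 anchors and 30 long loops, of which 1 was called higher and 3 lower in D2, all described above. The 3 lower ones all ended at Btn2a2. Ribosomal protein genes, 28 of 73 (38.4%), had 97 long loops of which edgeR called 0, with 5 at an unadjusted p under 0.05; Rpl41, for 1, lay in the end Zc3h10/Rpl41/Pa2g4, which met Arhgef25/Dtx3/Pip4k2c with 26, 20, 17 and 21 counts. Zinc finger genes, 60 of 373 (16.1%), were near the share of all protein-coding genes, and 1 of their 107 long loops was called higher and 1 lower. The median anchor total was 2050 for histone genes, 1703 for ribosomal protein genes, 1427 for the architecture list and 532 for zinc finger genes. Over all protein-coding genes it was 557, and the count rule favours rich ends. Genes of a list can share an anchor, so the loops are not independent. For comparison with these lists, 0.723% of all long loops and 1.43% of all tested loops were called by edgeR. At an unadjusted p under 0.05 the shares were 8.90% and 11.7%.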

How the data were processed

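H3K27ac HiChIP counts per anchor pair were deposited by the authors for 4 libraries (2 lines per strain) without normalization; the submitters' processing notes name mm10, HiC-Pro 2.11.4 and DESeq2, without their roles. The loop caller is not given in the sources used here. Each library's deposited file also gives a q-value per pair by the authors. The 4 library files held the same counts as the series table for all 1513030 pairs.

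Library totals were summed over all pairs, and CPM is the count per 1000000 of that total. The 108034 loops with at least 20 counts were tested with edgeR 4.0.16 (quasi-likelihood test, R 4.3.3, limma 3.58.1), TMM factors, a design with strain alone and p-values adjusted by Benjamini-Hochberg over all of them; anchors were tested likewise on their total over all pairs, and the other counts of an anchor are its total without the long loops. The test was also run on simulated counts, and the outcome is not given here. Means carry the SD over 2 libraries. Start sites came from GENCODE M21 on GRCm38, promoters from RefSeq. Named loops were the 12 strongest, the called, the 6 highest over expectation, the 3 longest, the strongest of the busiest anchors and of the gene lists, the loops of the histone, Tbx3 and chromosome 4 zinc finger regions, and those beside the thresholds; some named loops and genes are not reported here. Members, lists and regions were chosen with earlier results of these data known. Alternatives were other scalings, count minimums, a replicate block, DESeq2 1.42.0, each library left out, and other definitions of loops, start sites and expectation. At 20 counts a loop has about 5 per library, so small differences cannot be seen.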

Additional observations from a re-analysis of the deposited data

How the results depend on the processing

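The number of called long loops, 13, was 20 with the totals of pairs at 1 Mb or more as library sizes, 2 when no count minimum was set for the test, 0 with DESeq2 (24 at an unadjusted p under 0.05) and 2 to 14 with each library left out. The median log2 fold change was 0.24 with the totals of pairs at 1 Mb or more, and -0.11 to 0.16 with each library left out. With the replicate number as a block, 11 loops were called, 6 higher and 5 lower. The labels do not state whether the replicate numbers pair the samples. Deviations of same-numbered libraries had a correlation of -0.002 over the tested loops and -0.046 over those with at least 100 counts. These deviations carry counting error and were taken after scaling the libraries, so they cannot decide whether samples were paired. The anchors called, 218, were 370 with plain totals, 369 with chromosome totals, 102 with DESeq2, 369 with the replicate block and 56 to 713 with each library left out. The cause of these changes was not tested.

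The difference in the share held by long loops turned to -7.65e-04 with tested loops as the denominator and ran from -0.0164 to 0.0875 with each library left out, while that of all pairs at 1 Mb or more ran from -0.913 to -0.458. Other definitions gave 7801 long loops at 10 counts, 309 at 40 and 493 at 1.5 Mb. Start sites at both ends were found in 66.8% for protein-coding genes alone, 84.4% within 5 kb and 82.2% at 40 counts. Anchors in 3 or more loops were 52 at 40 counts. With distance as the only basis of expectation all 1797 loops reached 2 times. Of 373 values for 31 named loops, 5 turned their direction: with each library left out, Zfp184 to Abt1 ran from -0.17 to 0.66, Hist1h2ah to Abt1 from -0.67 to 0.68 and Gja1 to Hsf2 from -0.01 to 0.75, each lowest without D2 replicate 1, Hist1h4n to Abt1 from -0.14 (without D2 replicate 2) to 0.67, and Slc35b2 to Ccnd3 from -5.76 to 0.07 (without D2 replicate 2). Depth limits all of this: at 20 counts, differences within counting error were not detectable.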
